A study of Homo sapiens with 6 samples.

Results

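The genes described here are 46 genes for proteins that build ribosomes: subunits and initiation factors of RNA polymerase I, and nucleolar proteins that process ribosomal RNA and assemble the subunits. They were chosen by name from the 21776 genes of the count table, all 46 were found, and each had enough reads to be among the 14255 genes tested (edgeR's filter for expressed genes). RNA-seq measured them in SCC25, an established cell line from an oral squamous cell carcinoma, labelled as wild type. The labels of all 6 libraries name SCC25, whereas the study's legend to its pathway enrichment under hypoxia names SCC9, another oral squamous line, so the line is given here as labelled. In 3 libraries the cells had been kept for 12 h under hypoxia (1% O2, with CO2 and nitrogen) and in the other 3, the controls, for 12 h under normoxia (air with CO2), both in DMEM/F12 with fetal bovine serum and antibiotics. The model is therefore a single cell line at 1 oxygen level and 1 time. No label says that replicates were separate cultures, so the p-values measure the spread between these libraries, which may be technical. Hypoxia replicates 1, 2 and 3 held 30186813, 36076088 and 32272716 counted reads and normoxia replicates 1, 2 and 3 held 37278703, 29637189 and 29981208.

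Ribosomes are made in the nucleolus. RNA polymerase I, recruited by UBTF and RRN3, transcribes the long ribosomal RNA precursor, small nucleolar ribonucleoproteins (snoRNPs) modify it, and large sets of helicases, GTPases, nucleases and scaffold proteins fold and cut it and add ribosomal proteins to form the small and the large subunit. The process uses much of a growing cell's energy, and many of its genes are known targets of the transcription factor MYC. The libraries measure the mRNA of these factors, not ribosomal RNA synthesis.

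Under hypoxia, 45 of the 46 genes fell and 1, POLR1D, rose (edgeR's quasi-likelihood test, adjusted p under 0.05). Among all genes tested, 77.8% passed the test, 38.5% as lower and 39.2% as higher, so that a call alone says little and the direction and size are given below. Their log2-fold changes had a median of -1.69, against 0.02 over all genes tested. With upper-quartile scaling, which raises all log2-fold changes by 0.19, 4374 genes were lower and 6849 higher in place of 5495 and 5595, while the 46 genes kept their calls. Of the 46 genes, 40 were lower by more than 1 on the log2 scale, where 10.5% of all genes tested were, and 17 by more than 2, where 1.23% were. In all 46 genes the hypoxia libraries did not overlap with the normoxia libraries, which was so for 80.5% of all genes tested. In 45 they lay below (39.9% of all genes tested) and in POLR1D above (40.6%).

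**Figure D1:**
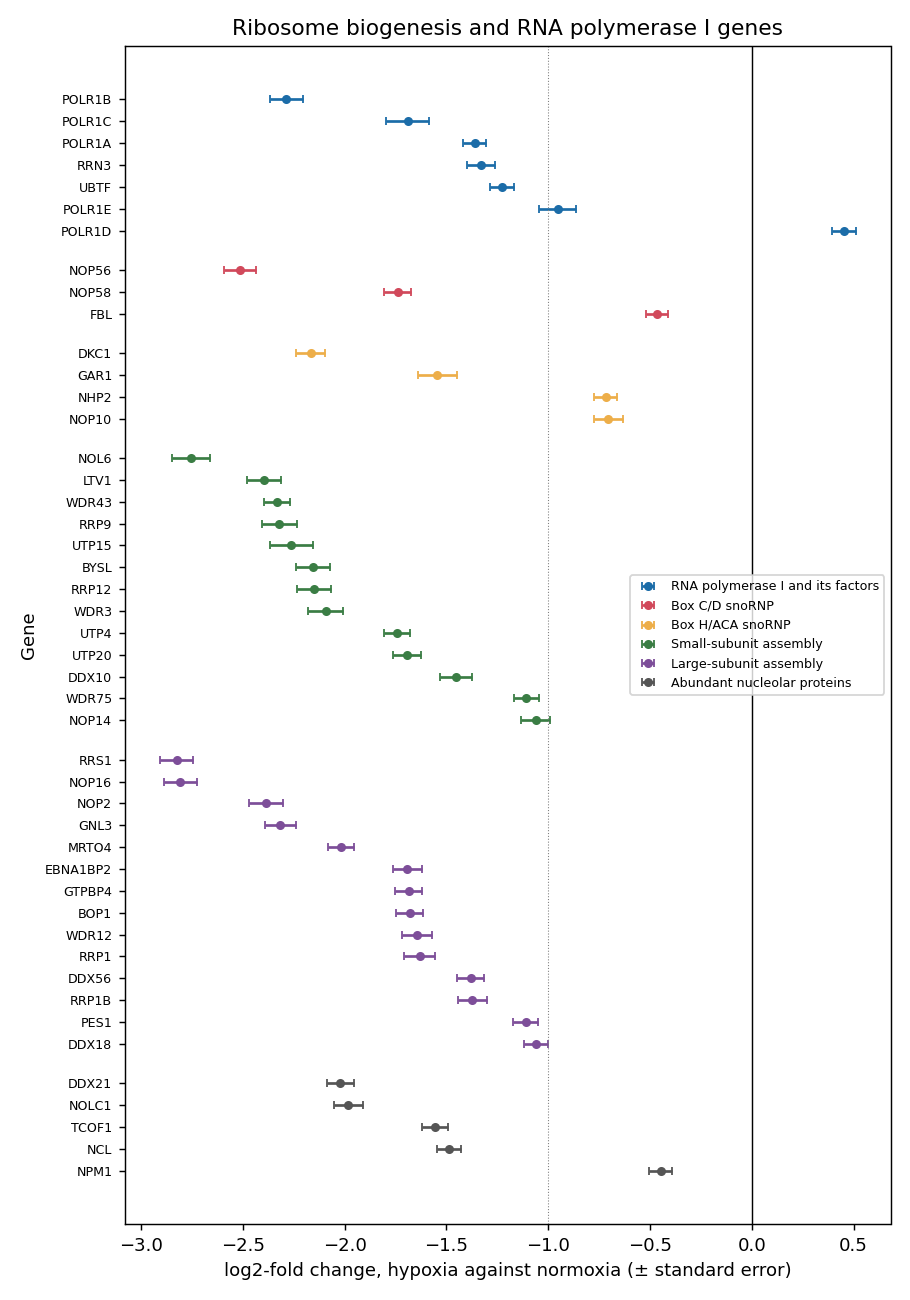
log2-fold change of each of the 46 genes under hypoxia against normoxia (x axis, points, with standard errors as bars, 3 libraries per condition), grouped by role; the dotted line marks -1. The points run from -2.83 for RRS1 to 0.45 for POLR1D, the only point right of 0.

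The mRNA of the 46 genes was a small share of all counted reads, and this share shrank. Their summed level was 9473.4, 9973.3 and 8605.1 CPM (counts scaled to the same normalized library total) in normoxia replicates 1 to 3 and 3807.6, 3512.5 and 3744.9 CPM under hypoxia. The mean sum fell from 9350.6 ± 692.3 to 3688.3 ± 155.5 CPM (SD, n = 3), which left 39.4% of the normoxic level. NCL and NPM1 alone made up a large part of it, and without them 34.0% was left. The group that kept the least was the small-subunit assembly factors, at 26.3%, followed by the large-subunit assembly factors at 32.1%. The RNA polymerase I group kept the most, at 51.5%, with POLR1D, which rose, making up 131.8 of its 353.7 CPM under hypoxia. Under normoxia POLR1D made up 96.4 of 686.7 CPM. By median log2-fold change the box H/ACA snoRNP group fell least (-1.13), and the RNA polymerase I group followed (-1.33). In bulk RNA a lower level in every cell and a lower share of cells that express the gene cannot be told apart, and CPM are relative to all counted reads, so that the amount of RNA per cell is not known.

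The sequence around the start sites was searched for short runs of letters. A RefSeq table of promoters (GRCh38.p14, 250 bases before to 50 after the start) held 37 of the 46 genes, with 46 start sites. The E-box letters CACGTG, the best known binding letters of MYC with MAX and read the same on both strands, were present at 1 or more listed start sites in 17 of the 37 genes (45.9%), against 12.1% of the 11197 tested genes with a promoter in the table and 8.8% of all 27305 genes in it. Of 19 matches, 17 lay wholly within 50 bases of a start site, a share that was not computed for other genes. The median log2-fold change was -2.02 in the 17 genes with the letters and -1.56 in the 20 without, a difference that was not tested. Of the 17 genes that fell by more than 2 on the log2 scale, 9 held the letters and 6 did not (NOP16, NOP56, POLR1B, UTP15, DKC1 and WDR3), and RRS1 and RRP12 have no row in the table. The letters ACGTG, which occur within CACGTG, were found on either strand in 56.8% of the 37 genes and in 31.7% of tested genes, and GCGTG in 75.7% and 57.3%. These are the letters of the hypoxia response element. Of the 21 genes with ACGTG, 17 were the genes with CACGTG, and the others were NCL, POLR1A, POLR1C and WDR12. Among tested genes 1356 of the 3550 with ACGTG held CACGTG. The share with ACGTG is therefore not a finding apart from that with CACGTG. The median GC content was 64.0% in the promoters of the 37 genes and 64.7% in those of tested genes. A match is a run of letters and not a measured binding site.

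Windows of 100 bases around the start site (50 on each side) are printed for 11 genes, 5′ to 3′ on the strand of the gene, with CACGTG in capitals. They were picked by the letters and the change: genes with large decreases with the letters (NOL6, WDR43, LTV1, NOP2, GNL3 and DDX21) and without them (NOP16 and NOP56), an intermediate decrease (GAR1) and a small decrease (FBL) with them, and POLR1D, which rose and lacks them. DDX21, GNL3 and GAR1 each have a further start site in the table, upstream and without the letters, and the window shown is that of the site with them. POLR1D also has a second listed start site, likewise without the letters. NOL6 lies at chr9:33473875-33473974 on the minus strand. WDR43 lies at chr2:28894617-28894716 on the plus strand, LTV1 at chr6:143843288-143843387 on the plus strand and NOP2 at chr12:6568242-6568341 on the minus strand. GNL3 lies at chr3:52685982-52686081 on the plus strand, DDX21 at chr10:68956597-68956696 on the plus strand and GAR1 at chr4:109815712-109815811 on the plus strand. NOP16 lies at chr5:176388549-176388648 on the minus strand and NOP56 at chr20:2652582-2652681 on the plus strand. FBL lies at chr19:39846330-39846429 on the minus strand and POLR1D at chr13:27620693-27620792 on the plus strand.
NOL6: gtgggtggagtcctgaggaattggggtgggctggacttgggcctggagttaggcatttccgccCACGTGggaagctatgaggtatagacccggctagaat
WDR43: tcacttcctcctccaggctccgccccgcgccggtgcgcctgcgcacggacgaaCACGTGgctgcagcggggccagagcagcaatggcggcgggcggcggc
LTV1: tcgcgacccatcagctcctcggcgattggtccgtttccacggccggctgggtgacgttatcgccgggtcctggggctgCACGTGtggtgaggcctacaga
NOP2: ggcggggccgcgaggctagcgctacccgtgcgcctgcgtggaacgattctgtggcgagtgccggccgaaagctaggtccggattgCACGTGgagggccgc
GNL3: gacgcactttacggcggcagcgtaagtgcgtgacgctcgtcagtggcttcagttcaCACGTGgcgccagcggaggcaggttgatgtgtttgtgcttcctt
DDX21: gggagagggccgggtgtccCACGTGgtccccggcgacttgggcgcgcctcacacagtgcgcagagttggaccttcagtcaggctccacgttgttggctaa
NOP16: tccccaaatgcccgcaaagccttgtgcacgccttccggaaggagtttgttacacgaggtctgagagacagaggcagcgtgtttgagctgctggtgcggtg
NOP56: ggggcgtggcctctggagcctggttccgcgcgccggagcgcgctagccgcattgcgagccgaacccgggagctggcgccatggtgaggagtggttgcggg
GAR1: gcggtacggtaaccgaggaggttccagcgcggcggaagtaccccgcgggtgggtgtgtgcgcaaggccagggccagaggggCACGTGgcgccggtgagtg
FBL: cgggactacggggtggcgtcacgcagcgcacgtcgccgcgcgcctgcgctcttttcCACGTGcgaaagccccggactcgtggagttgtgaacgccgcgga
POLR1D: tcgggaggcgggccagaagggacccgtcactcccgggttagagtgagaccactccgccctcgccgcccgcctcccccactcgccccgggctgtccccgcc

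Of the 7 genes of RNA polymerase I and its factors, 6 fell and 1 rose, with a median log2-fold change of -1.33. POLR1A and POLR1B encode the largest and second largest subunits, which form the active site. POLR1A was at 162.1, 169.1 and 153.8 CPM in normoxia replicates 1 to 3 and at 64.3, 62.0 and 62.6 CPM under hypoxia, and fell by 1.36 on the log2 scale (standard error 0.06, adjusted p = 6.96e-13 by edgeR). POLR1B was at 99.6, 102.9 and 82.4 CPM under normoxia and at 21.0, 18.7 and 18.8 CPM under hypoxia, which is 4.88-fold lower (log2-fold change -2.29, standard error 0.08, adjusted p = 1.96e-13 by edgeR). The hypoxia values of both genes lay close together and far under the lowest normoxia value, and normoxia replicate 3 was the lowest of the controls in both.

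RRN3, which carries the polymerase to the promoter and whose activity is known to follow growth and energy signals, was at 93.8, 92.2 and 85.3 CPM under normoxia and at 39.3, 32.7 and 36.0 CPM under hypoxia (log2-fold change -1.33, standard error 0.07, adjusted p = 1.42e-11 by edgeR). UBTF, which binds along the ribosomal RNA genes and keeps them open, was at 145.4, 155.5 and 142.2 CPM under normoxia and at 64.0, 59.1 and 66.4 CPM under hypoxia (log2-fold change -1.23, standard error 0.06, adjusted p = 5.73e-12 by edgeR). Both initiation factors thus lost more than 2.3-fold, with no overlap between the conditions. POLR1E, a subunit of the polymerase's periphery, fell less, from 50.9 ± 6.04 to 26.4 ± 2.86 CPM (SD, n = 3).

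POLR1C and POLR1D form a dimer that RNA polymerases I and III share, and they moved in opposite directions. POLR1C fell from 44.7 ± 3.63 to 13.9 ± 2.44 CPM (SD, n = 3, log2-fold change -1.69, adjusted p = 1.13e-10 by edgeR). POLR1D was at 93.7, 99.9 and 95.6 CPM under normoxia and at 125.1, 128.2 and 142.2 CPM under hypoxia, all 3 above the highest control (1.37-fold higher, log2-fold change 0.45, standard error 0.06, adjusted p = 1.83e-06 by edgeR). Per gene length, in FPKM, POLR1D stood at 1.47 ± 0.113 times the level of POLR1C under normoxia and at 6.58 ± 1.26 times under hypoxia (SD, n = 3). The exact two-sided permutation test gave p = 0.1 (0.109 adjusted over the 12 ratios of partner genes computed), the smallest that 3 against 3 libraries allow. POLR1C shares 348 exonic bases with XPO5 on the opposite strand in GENCODE v29. XPO5 was more abundant, with 193.1 CPM under normoxia and 99.9 CPM under hypoxia (log2-fold change -0.95). YIPF3 (129 shared bases) and LRRC73 (140), also on the opposite strand, had log2-fold changes of 0.52 and 1.64. Whether the counting used the strand is not given in the sources used here, and the part of their reads in the values of POLR1C and in its ratio was not tested.

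**Figure D2:**
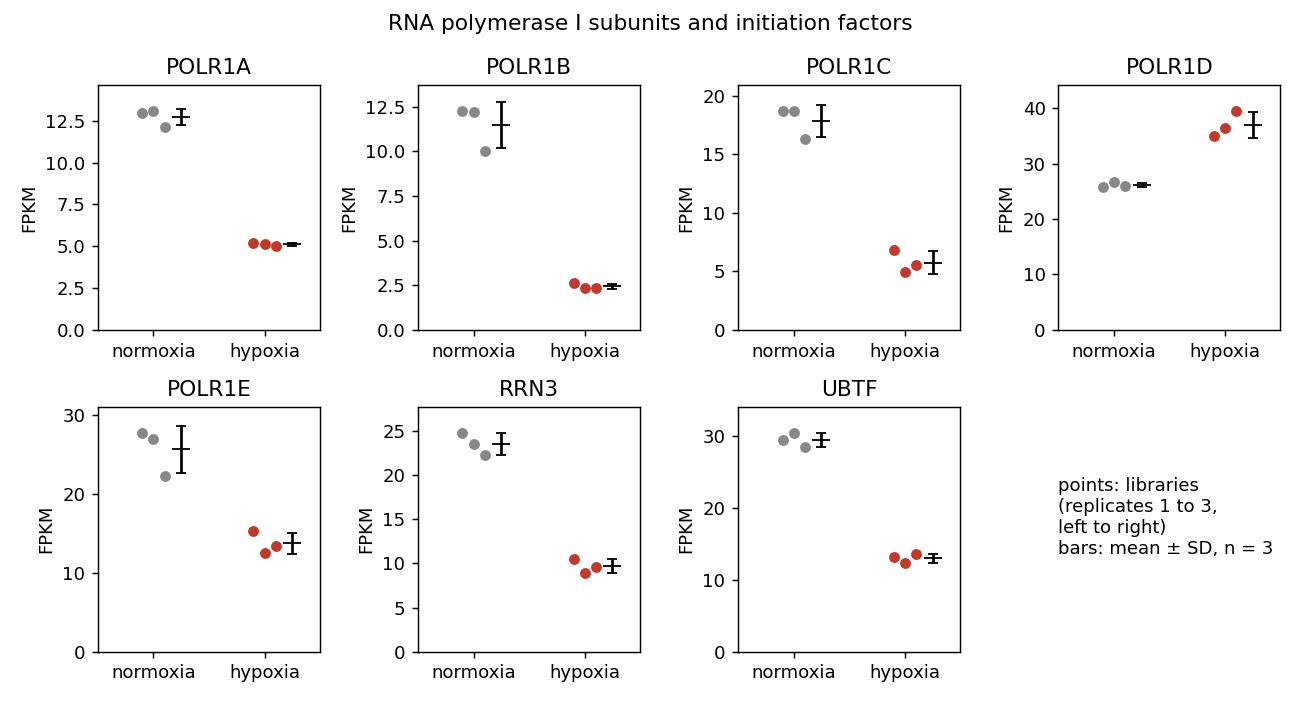
FPKM (y axis, linear from 0) of the RNA polymerase I subunits and initiation factors in each library (points, replicates 1 to 3 from left to right) with mean ± SD (bars, n = 3). In 6 panels the hypoxia points lie under all normoxia points, and in the POLR1D panel they lie above them (mean 36.9 against 26.2).

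The snoRNPs of the box C/D and box H/ACA kinds methylate ribosomal RNA at the ribose (box C/D) or turn uridine into pseudouridine (box H/ACA). All 3 box C/D proteins and all 4 box H/ACA proteins measured fell, with median log2-fold changes of -1.74 and -1.13, but within each particle the partners fell by very different amounts.

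Of the box C/D core, NOP56, a scaffold protein, was at 414.6, 434.7 and 350.1 CPM under normoxia and at 74.7, 64.5 and 70.9 CPM under hypoxia, 5.71-fold lower (log2-fold change -2.51, standard error 0.08, adjusted p = 3.35e-14 by edgeR). FBL, fibrillarin, the methyltransferase itself, was at 318.6, 320.4 and 306.1 CPM under normoxia and at 236.4, 214.4 and 233.9 CPM under hypoxia, only 1.38-fold lower (log2-fold change -0.47, standard error 0.05, adjusted p = 3.89e-07 by edgeR). NOP58, the partner scaffold of NOP56, lay between them at a log2-fold change of -1.74. In FPKM the ratio of FBL to NOP56 moved from 1.33 ± 0.121 to 5.47 ± 0.144 (SD, n = 3, exact permutation p = 0.1, the smallest possible).

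Of the box H/ACA core, DKC1, dyskerin, the pseudouridine synthase that also belongs to telomerase, was at 205.4, 220.4 and 187.1 CPM under normoxia and at 47.7, 41.5 and 47.5 CPM under hypoxia (4.49-fold lower, log2-fold change -2.17, standard error 0.07, adjusted p = 6.15e-14 by edgeR). NOP10, a small structural partner, was at 120.6, 126.3 and 112.5 CPM under normoxia and at 77.1, 64.6 and 79.2 CPM under hypoxia (1.63-fold lower, log2-fold change -0.70, standard error 0.07, adjusted p = 8.2e-08 by edgeR). GAR1 fell by 1.54 and NHP2 by 0.72 on the log2 scale. The catalytic subunit thus fell most here, while that of the box C/D particle fell least among the 3 box C/D proteins chosen. In FPKM the ratio to DKC1 went from 3.43 ± 0.0824 to 9.41 ± 0.325 for NOP10, from 1.40 ± 0.101 to 3.81 ± 0.195 for NHP2 and from 0.477 ± 0.0198 to 0.733 ± 0.0444 for GAR1 (SD, n = 3, exact permutation p = 0.1 for each, the smallest possible). NHP2 shares 414 exonic bases with RMND5B on the opposite strand, which had a log2-fold change of -0.38.

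All 13 factors of the small subunit fell, each by more than 1 on the log2 scale and 8 of them by more than 2, and their median of -2.15 was the lowest of the 6 role groups. NOL6, part of the large early complex called the small-subunit processome, was at 143.3, 154.9 and 121.0 CPM under normoxia and at 22.7, 18.1 and 21.4 CPM under hypoxia, 6.75-fold lower (log2-fold change -2.75, standard error 0.09, adjusted p = 7.81e-14 by edgeR). NOP14, also of the processome, fell least, with 74.0, 69.9 and 60.2 CPM under normoxia and 33.2, 32.0 and 32.6 CPM under hypoxia (2.09-fold lower, log2-fold change -1.06, standard error 0.07, adjusted p = 4.66e-10 by edgeR). Even in this gene the lowest normoxia library lay well above the highest hypoxia library.

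The processome subunits that bind the precursor early, WDR43 (-2.33), UTP15 (-2.26), UTP4 (-1.74) and WDR75 (-1.11 on the log2 scale), spread over more than 1 log2 unit. WDR3, of another processome module, fell by 2.09, the U3 snoRNP protein RRP9 by 2.32, UTP20 by 1.69 and the helicase DDX10 by 1.45. Factors of later steps and export fell by 2.40 (LTV1), 2.16 (BYSL) and 2.15 (RRP12) on the log2 scale. Decreases of more than 4-fold were therefore found among both early and late factors. NOP14 shares 605 exonic bases with its antisense gene NOP14-AS1, which was at 4.44 CPM under normoxia and 9.43 CPM under hypoxia.

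All 14 factors of large-subunit assembly fell, with a median log2-fold change of -1.68, and 5 fell by more than 2. RRS1, which helps to bring the 5S particle into the growing subunit, had the largest decrease of the 46 genes: it was at 114.2, 114.7 and 99.6 CPM under normoxia and at 16.2, 13.5 and 16.7 CPM under hypoxia, 7.09-fold lower (log2-fold change -2.83, standard error 0.08, adjusted p = 1.79e-14 by edgeR). NOP16, a nucleolar assembly factor, followed with a log2-fold change of -2.81 (standard error 0.08), so that the order of these genes is within their error. On the same strand RRS1 shares 11.4% of its exonic bases with an annotated gene (AC009879.2), as NOP2 does 54.4% (AC006064.6) and LTV1 27.7% (AL049844.3), and none of these 3 annotated genes was tested. NOP2, an RNA methyltransferase, fell by 2.39, the GTPase GNL3 (nucleostemin) by 2.32 and MRTO4 by 2.02 on the log2 scale. DDX18, a helicase, fell least, with 173.3, 178.2 and 158.7 CPM under normoxia and 83.8, 79.7 and 81.3 CPM under hypoxia (2.08-fold lower, log2-fold change -1.06, standard error 0.06, adjusted p = 2.04e-11 by edgeR).

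PES1, BOP1 and WDR12 act as a trimer. BOP1 (-1.68) and WDR12 (-1.64 on the log2 scale) fell by amounts within their standard errors of 0.07, and PES1 fell by 1.11. In FPKM the ratio of WDR12 to BOP1 was 0.106 ± 0.00407 under normoxia and 0.109 ± 0.00582 under hypoxia (SD, n = 3, exact permutation p = 0.5), and that of PES1 to BOP1 was 0.989 ± 0.0320 and 1.46 ± 0.0375 (exact permutation p = 0.1, the smallest possible). The paralogs RRP1 (-1.63) and RRP1B (-1.37), the GTPase GTPBP4 (-1.69), EBNA1BP2 (-1.69) and the helicase DDX56 (-1.38 on the log2 scale) made up the rest of the group.

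All 5 abundant nucleolar proteins fell, with a median log2-fold change of -1.56. DDX21, a helicase that binds both ribosomal DNA and its transcripts, was at 479.6, 505.1 and 418.5 CPM under normoxia and at 118.9, 110.5 and 116.1 CPM under hypoxia, 4.06-fold lower (log2-fold change -2.02, standard error 0.07, adjusted p = 6.15e-14 by edgeR). NCL, nucleolin, was at 1787, 1965 and 1717 CPM under normoxia and at 671.5, 620.8 and 659.1 CPM under hypoxia (log2-fold change -1.49, standard error 0.06, adjusted p = 4.97e-13 by edgeR). NPM1, nucleophosmin, a histone chaperone that fills the outer nucleolus, was at 1215, 1294 and 1128 CPM under normoxia and at 913.2, 855.9 and 898.3 CPM under hypoxia (1.36-fold lower, log2-fold change -0.45, standard error 0.06, adjusted p = 1.22e-06 by edgeR). Among the 45 genes that fell, NPM1 had the smallest decrease, within the error of that of FBL, and still no hypoxia library reached a normoxia library. NPM1 has 45 annotated pseudogenes in GENCODE v29, and how reads shared with them were counted is not given in the sources used here. NOLC1, a chaperone of snoRNPs, fell by 1.98, and TCOF1, treacle, which works with UBTF and RNA polymerase I, by 1.56 on the log2 scale.

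**Figure D3:**
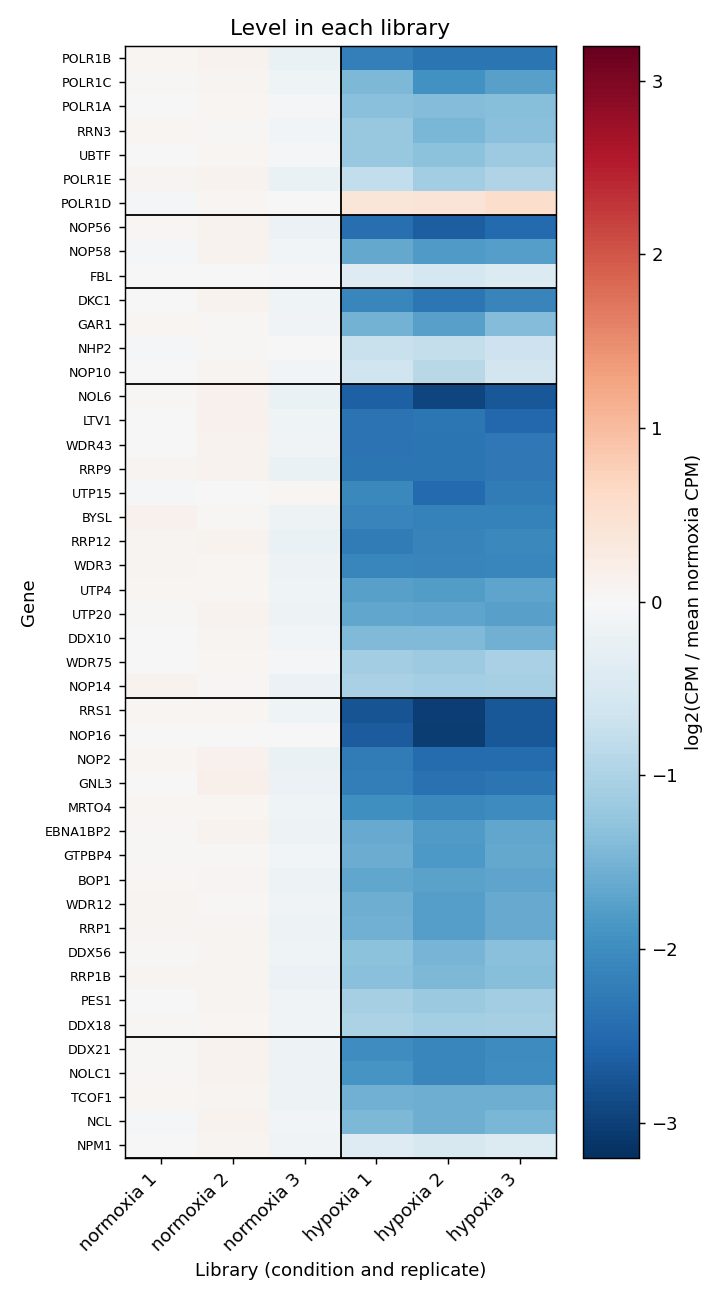
log2 ratio of CPM in each library to the mean normoxia CPM (colour) for the 46 genes (rows, grouped by role) in the 6 libraries (columns). The 3 hypoxia columns are blue in every row but POLR1D, and normoxia replicate 3 is slightly paler or bluer than the other controls in most rows.

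The libraries of a condition were alike in size of change but not interchangeable. The median over the 46 genes of the log2 CPM, relative to the normoxia mean, was 0.04, 0.09 and -0.14 in normoxia replicates 1 to 3 and -1.60, -1.77 and -1.66 in hypoxia replicates 1 to 3. Normoxia replicate 3 was the lowest control in 43 of the 46 genes, against 38.1% of all genes tested. It was also the highest control in 13 of the 15 hypoxia response genes described below, against 37.2% of all genes tested. Hypoxia replicate 2 was the lowest hypoxia library in 37 of the 46 genes, against 38% of all genes tested. Without normoxia replicate 3 the median log2-fold change was -1.77, again with 45 genes lower and 1 higher. Members thus share replicate differences and are not independent of each other.

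Levels can be compared between genes in FPKM, which divide by gene length. Under normoxia NPM1 (549.7 FPKM), NCL (456.7), FBL (271.5), NOP10 (232.3) and NOP56 (205.4 FPKM) were the most abundant, and WDR3 (4.07 FPKM) the least. The median over the 46 genes was 40.5 FPKM under normoxia and 11.5 FPKM under hypoxia. The order shifted: 17 genes changed rank by 5 or more, POLR1D from 31 to 9, NOP16 from 11 to 23 and RRS1 from 17 to 29. Across the 46 genes the log2 normoxia FPKM and the log2-fold change had a Pearson's r of 0.18 and a Spearman's rho of 0.05, a description over genes that share the same libraries. With limma on log2(FPKM + 1), 45 genes were lower and 1 higher, where 44.2% and 36.7% of the 10976 genes tested were, and the median change was -1.49 on that scale.

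**Figure D4:**
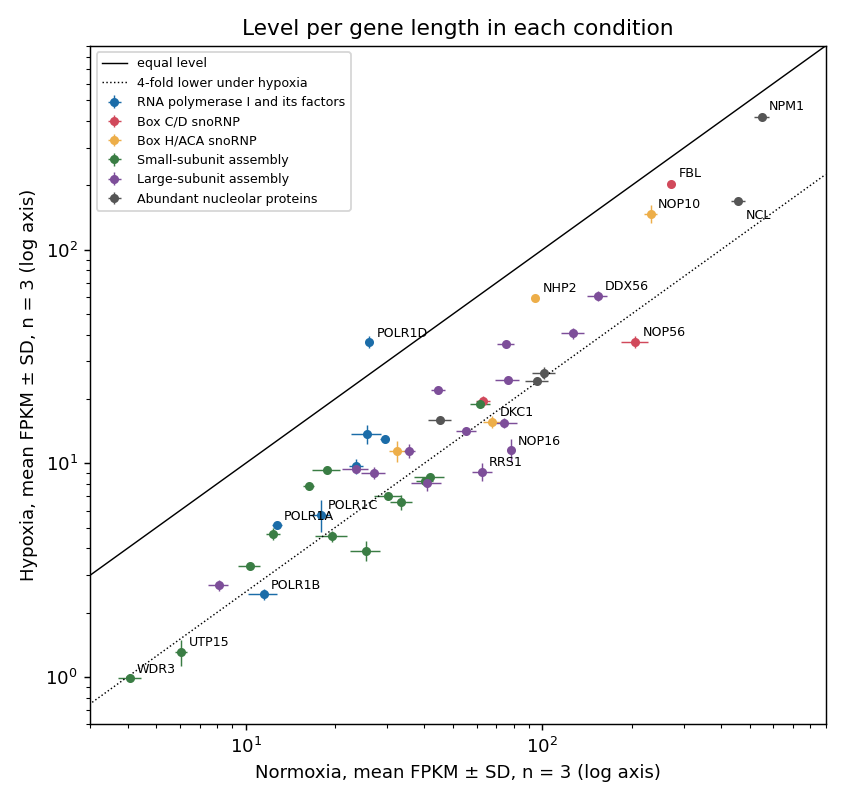
Mean FPKM under normoxia (x axis) and hypoxia (y axis) of the 46 genes, both on log axes, with SD as bars (n = 3); the solid line marks equal levels and the dotted line a 4-fold lower level under hypoxia. POLR1D lies above the solid line, and NPM1 and FBL lie closest under it.

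The decrease was not limited to the chosen genes. Of 42 other small-subunit factors all fell (median log2-fold change -1.20), and of 48 other large-subunit factors 43 fell, 3 rose and 2 did not pass the test (median -1.14). Among all genes tested 38.5% fell and 39.2% rose. PNO1, a late small-subunit factor, fell most in the first list, by 2.42 on the log2 scale, and URB2 in the second, from 44.5 ± 3.99 to 5.35 ± 1.04 CPM (SD, n = 3). NOP53, a large-subunit factor, rose from 89.9 ± 3.92 to 203.0 ± 9.43 CPM (log2-fold change 1.18 with a standard error of 0.06). The others that rose were EFL1 (0.33) and PPAN (0.46, standard error 0.17, adjusted p = 0.0192 by edgeR). PPAN was low, at 3.68 ± 0.371 CPM under normoxia and 5.06 ± 0.495 CPM under hypoxia. With upper-quartile scaling the calls were 40 lower of 42 small-subunit factors, and 42 lower and 5 higher of 48 large-subunit factors. Without hypoxia replicate 3 or without normoxia replicate 3, 2 large-subunit factors were higher. Of 13 further RNA polymerase I genes 12 fell (median -0.57). This list includes POLR2E, POLR2F, POLR2H, POLR2K and POLR2L, which are named for RNA polymerase II. With total-count scaling, with upper-quartile scaling, where the median was -0.38, and with the stricter filter on counts, 10 fell. TAF1B, of the promoter selectivity factor, did not pass the test (-0.04, adjusted p = 0.74 by edgeR). POLR1G, a subunit of the polymerase's periphery, was at 52.6, 53.7 and 46.3 CPM under normoxia and at 5.27, 4.92 and 4.16 CPM under hypoxia, a log2-fold change of -3.41 (standard error 0.10). That is a larger decrease than in any of the 46 genes.

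The 14 genes measured of the RNA exosome, the nuclease that trims ribosomal RNA precursors, fell (median log2-fold change -1.01), EXOSC6 most (-2.19, standard error 0.10) and EXOSC1 least (-0.22, adjusted p = 0.0301 by edgeR). Over all genes tested 38.5% fell and 39.2% rose. Of the 14, 13 were lower with total-count or upper-quartile scaling, with the stricter filter, and on leaving out replicate 1 or 3 of hypoxia or replicate 2 of normoxia. Of 22 genes of RNA polymerase III, which makes 5S ribosomal RNA and tRNA, 17 fell, 2 rose and 3 did not pass the test (median -0.78). With upper-quartile scaling 15 were lower and 4 higher, and without hypoxia replicate 3 or without normoxia replicate 1 only 1 was higher. POLR3K had the lowest value (-2.12) and POLR3GL the highest (0.37). Of 10 genes for chromatin at ribosomal DNA 5 fell and 3 rose, near the shares over all genes tested (38.5% and 39.2%). SUV39H1 (-1.50) and BAZ2A (0.45) lay at the ends, and the median of -0.16 turned to 0.04 with upper-quartile scaling.

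The ribosomal proteins themselves went the other way. Of 78 tested, 62 rose, 3 fell and 13 did not pass the test, with a median log2-fold change of 0.25. Among all genes tested 39.2% rose and 38.5% fell. With upper-quartile scaling 75 were higher and the median was 0.44, and without hypoxia replicate 3 the number higher was 50. Their summed level went from 64520 ± 1484 to 77574 ± 3352 CPM (SD, n = 3), 120.2% of the normoxic level. RPL13A had the largest increase, from 1479 ± 35.5 to 2239 ± 67.6 CPM, and RPS10 the largest decrease, from 6.69 ± 0.540 to 1.86 ± 0.468 CPM. Ribosomal protein genes have many pseudogenes, and RPS10 is among the lowest of these genes here, so its value is uncertain. The others that fell were at higher levels: RPS26, from 254.6 ± 12.8 to 129.9 ± 4.24 CPM (log2-fold change -0.97), and FAU, from 247.7 ± 6.48 to 207.5 ± 12.8 CPM (-0.26).

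The authors' deposited annotation was read as a check on the names. It places 37 of the 46 genes in the nucleolus, against 5.82% of all genes tested, and gives 21 of them the term rRNA processing. Of the 792 other tested genes in the nucleolus 450 were lower, and of the 91 other rRNA processing genes 65 were lower, where 38.5% of all genes tested were. In GENCODE v29 small nucleolar RNAs lie within 7 of the genes, 5 in NOP56 and 5 in GNL3. The small nucleolar RNAs themselves were not analysed here.

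MYC and its partners were read beside these genes. MYC was at 250.3, 255.7 and 260.5 CPM under normoxia and at 42.8, 28.2 and 33.6 CPM under hypoxia, 7.35-fold lower (log2-fold change -2.88, standard error 0.10, adjusted p = 1.3e-13 by edgeR). MXI1, which competes with MYC for MAX, was at 7.39, 7.37 and 9.80 CPM under normoxia and at 115.4, 134.1 and 131.3 CPM under hypoxia, 15.6-fold higher (log2-fold change 3.96, standard error 0.10, adjusted p = 3.61e-15 by edgeR). Of 9 genes in this network, 5 fell and 4 rose, where 38.5% and 39.2% of all genes tested did. Those that rose were MXI1, MXD1 (1.01), MXD4 (1.66) and MNT (1.42 on the log2 scale), all known to oppose MYC by pairing with MAX. MXD3 and MGA, which also pair with MAX and are known to oppose MYC, fell instead, by 0.56 and 0.55 (adjusted p = 0.00143 and 2.7e-07 by edgeR), as did MAX itself (0.56) and MLX (0.39 on the log2 scale). Whether any of them acts on the 46 genes was not tested.

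As a check of the labels, all 15 of a list of genes known to respond to hypoxia rose, where 39.2% of all genes tested did. Their median log2-fold change was 2.71. EGLN3, an oxygen-sensing hydroxylase, had the largest increase, from 5.86, 3.74 and 10.7 CPM under normoxia to 609.3, 731.9 and 745.3 CPM under hypoxia. Squamous epithelial markers were checked for the cell type: 9 of 10 passed the filter, and their sum was 1118.1, 1122.7 and 1204.8 CPM under normoxia and 1474.0, 1492.0 and 1515.4 CPM under hypoxia. Of the 9, 5 rose, 3 fell and TP63 did not pass the test, where 39.2% of all genes tested rose and 38.5% fell. Much of the higher sum was CDH1, a general epithelial gene, which rose from 187.8 to 478.7 CPM, and KRT6A fell most (log2-fold change -4.12). DSG3 rose by 1.35 on the log2 scale. KRT14, a defining basal keratin, had a single count in normoxia replicate 2 and none in the other 5 libraries, where a count of 0 allows up to 3. These markers therefore do not settle which of the squamous lines named above was used.

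Markers of other cell types were low in sum, apart from COL1A1, and moved with the condition. COL1A1, a collagen gene of fibroblasts, reached 18.0 CPM under hypoxia, above several of the 46 genes there, such as RRS1 (15.5 CPM). The 4 leukocyte markers measured summed to 0.9, 0.8 and 1.6 CPM under normoxia and 6.3, 5.5 and 5.8 CPM under hypoxia, nearly all from CD14, with PTPRC at no count in 5 libraries and CD3E at no count in 5. The 5 endothelial markers summed to 0.3, 0.3 and 0.7 CPM and to 1.7, 1.3 and 1.6 CPM, with CDH5 the most abundant and VWF, KDR and TEK at no count in any normoxia library. The 5 fibroblast markers summed to 4.0, 3.1 and 5.6 CPM and to 22.0, 18.7 and 17.1 CPM, mostly from COL1A1, while COL1A2, DCN and LUM did not pass the filter. Few of these markers had enough reads to be tested. Of those, 1 of 1 leukocyte (CD14), 1 of 1 endothelial (CDH5) and 1 of 2 fibroblast markers (COL1A1) were called higher, where 39.2% of all genes tested were. Their part in the changes of the 46 genes was not tested.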

How the data were processed

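The authors deposited raw counts, whole reads per gene, and FPKM, counts divided by gene length and library total, for 6 libraries made from total RNA with an mRNA kit. The aligner and counter are not given in the sources used here. The submitters' processing notes name the mouse builds GRCm38 and mm10, whereas the gene symbols are human. The test for counts was edgeR's quasi-likelihood F test (version 4.0.16, R 4.3.3, TMM, filterByExpr, glmQLFit and glmQLFTest, condition as the only term, Benjamini-Hochberg adjustment over 14255 genes, threshold 0.05). The common biological coefficient of variation was 0.0685, and the smallest count of a member in any library was 218. FPKM were tested with limma 3.58.1 on log2(FPKM + 1) where the mean reached 1 FPKM. DESeq2 1.42.0, other scalings and filters, left-out libraries and a replicate block were alternatives. The main edgeR and limma fits and the DESeq2 test were run on simulated data first, in which far fewer genes changed than here. The permutation tests, the other scalings and filters, the replicate block and the left-out libraries were not tried on simulated data. Replicate pairs differed by more than sampling noise (5.09 to 10.7 chi-square units per gene). The 46 genes, the wider lists and the tests were chosen with earlier results of these data known. Values in every library are given for the largest and smallest changes of each role group, for POLR1A, POLR1B, RRN3, UBTF, FBL, DKC1, NCL and NPM1, and for MYC and MXI1, and from each wider list the largest changes are named. Genes named beyond these were chosen after their values were seen.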

Additional observations from a re-analysis of the deposited data

How the results depend on the processing

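Under 13 alternatives (DESeq2 size factors, the DESeq2 Wald test, total-count and upper-quartile scaling, no filter and a stricter filter on counts, a replicate block, and each of 6 libraries left out), all 598 values of the 46 genes kept their direction and passed the threshold. The largest adjusted p was 0.000302 (NPM1, edgeR with upper-quartile scaling). Their median log2-fold change ran from -1.77 to -1.50, the latter with upper-quartile scaling, which moved all genes up by 0.19. NPM1 ran from -0.51 to -0.25, FBL from -0.51 to -0.27 and POLR1D from 0.39 to 0.65. With a log2-fold change beyond 1 also required, 4338 genes were called (1498 lower, 2840 higher) and 0 of the 46 were higher. The median over all genes was 0.07 with total counts, 0.22 with the upper quartile, 0.20 without a filter, 0.012 where all libraries had to reach 10 counts, and 0.023 to 0.041 with a library left out. The median for chromatin at ribosomal DNA turned from -0.156 to 0.038 with upper-quartile scaling, through the same upward move of all genes by 0.19. The replicate numbers do not pair the libraries (same-numbered deviations had r of 0.018, -0.069 and 0.001), and with the replicate block 10875 genes and all 46 were called.

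The data are limited to 3 libraries per condition, 1 cell line and 1 time, and exact permutation tests cannot go below p = 0.1. The strand of counting and the treatment of reads that match several places are not given in the sources used here, so reads of overlapping genes on either strand and of pseudogenes were not separated, and the named mouse builds were not checked against reads.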
